A study of Homo sapiens with 9 samples.

Results

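CXCR3 and 9 further receptors that steer B cells through tissue were examined in bulk RNA-seq of MEC1, a cell line from a patient with chronic lymphocytic leukemia (CLL), a malignancy of mature B cells. The 10 genes were taken by symbol from the 59050 genes of the table: the chemokine receptors CXCR3, CXCR4, CXCR5, CCR6, CCR7 and CCR10, the atypical chemokine receptor ACKR3, the sphingosine-1-phosphate receptors S1PR1 and S1PR4, and the oxysterol receptor GPR183. The list was written with earlier results of these data known, and the study itself drew attention to CXCR3 on these samples. In 2D, MEC1 cells were grown in conventional culture, and no time is given for these 3 samples. In 3D_7d and 3D_14d, the cells were embedded in a hydrogel, bioprinted as a scaffold, crosslinked with calcium chloride and kept in culture for 7 or 14 days, with 3 samples per time point. The comparison of 3D with 2D addresses how growth in a scaffold alters expression. The comparison of both time points addresses how expression in the scaffold differs after longer culture. All 9 samples are labelled as the MEC1 line, and their titles also carry the letters PGK, whose meaning the labels do not give. Nothing in the sources used here states that replicates were separate cultures, so that p-values measure only the spread between these samples.

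Chemokine receptors are G protein-coupled receptors that detect gradients of small secreted proteins, and B cells use them to move between blood, marrow, follicles and T zones. Sphingosine-1-phosphate receptors sense a lipid abundant in blood and lymph and are known for the exit of lymphocytes from tissue, while GPR183 senses oxysterols and positions B cells at the borders of the follicle. Atypical receptors such as ACKR3 bind chemokines without classical G protein signalling and remove them from the surroundings.

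Libraries held 54662799 to 85968686 counts assigned to genes. Scaffolds were extracted with TRIzol, treated with DNase I and then purified with a column kit. For 2D cultures only the column kit was used, with a DNase solution among its washes. In every comparison with 2D the culture and the extraction therefore cannot be told apart. The extraction was the same at both time points. The library of 3D_14d replicate 1 stood apart from its group. Its disagreement with the other replicates, as chi-square per gene, was 253 and 305, against 155 between the other replicates of 3D_14d and 22.5 to 81.9 within 2D and 3D_7d. Without this library the counts of receptors called in each comparison were the same as with it (8, 6 and 3). B cell markers had 8 of 8 genes tested and a summed level of 3246 to 3281 CPM in 2D, 3743 to 4344 in 3D_7d and 4419 to 5071 in 3D_14d. Their means in 2D ranged from 16.2 CPM for CR2 to 839 for MS4A1. The sum covers moves in both directions. From 2D to 3D_7d and 3D_14d, mean CD22 went from 541 CPM to 249 and 332. Over the same groups MS4A1 went from 839 to 1520 and 1067, and CD79A from 507 to 628 and 1308. Markers of T and NK cells (1 of 7 tested) summed to 2.37 to 2.98 CPM in 2D, 1.71 to 1.90 in 3D_7d and 3.32 to 5.45 in 3D_14d, and myeloid markers (1 of 7 tested) to 1.84 to 2.41, 1.29 to 2.82 and 3.91 to 5.15. Stromal and endothelial markers (2 of 6 tested) summed to 10.4 to 11.4 CPM in 2D, 2.41 to 5.33 in 3D_7d and 2.66 to 8.06 in 3D_14d. No marker was at 0 in all samples; the part of these RNAs in the results was not tested.

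The set of RefSeq promoters used here (GRCh38.p14) holds an entry for 7 of the 10 receptors, CXCR3, CXCR4, CXCR5, CCR6, S1PR1, S1PR4 and GPR183. CCR7, CCR10 and ACKR3 have no entry in this set. The 250 bases before the start are shown for 4 of them because they cover the different patterns described below: CXCR3, higher at both time points; CXCR4 and GPR183, lower at both; and S1PR4, which differed between the time points. The windows are chrX:71618512-71618761 (minus strand) for CXCR3, chr2:136118150-136118399 (minus strand, the RefSeq promoter farthest upstream of the 3 listed) for CXCR4, chr19:3178519-3178768 (plus strand) for S1PR4 and chr13:99307400-99307649 (minus strand) for GPR183. Capitals mark matches, on either strand, to 5 motifs that were searched: the KLF box CACCC, the T-box half-site TCACAC, the hypoxia-inducible factor core ACGTG, the FOXO site GTAAACA and the NF-kB site.
CXCR3: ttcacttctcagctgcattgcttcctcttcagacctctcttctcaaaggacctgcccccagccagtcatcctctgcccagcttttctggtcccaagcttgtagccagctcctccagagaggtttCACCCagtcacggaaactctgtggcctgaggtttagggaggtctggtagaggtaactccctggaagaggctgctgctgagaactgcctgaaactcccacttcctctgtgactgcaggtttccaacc
CXCR4: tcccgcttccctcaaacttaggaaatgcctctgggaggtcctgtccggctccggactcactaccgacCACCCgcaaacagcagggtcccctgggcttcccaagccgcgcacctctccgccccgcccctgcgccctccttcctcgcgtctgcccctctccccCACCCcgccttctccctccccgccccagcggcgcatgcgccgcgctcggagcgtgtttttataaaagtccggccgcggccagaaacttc
S1PR4: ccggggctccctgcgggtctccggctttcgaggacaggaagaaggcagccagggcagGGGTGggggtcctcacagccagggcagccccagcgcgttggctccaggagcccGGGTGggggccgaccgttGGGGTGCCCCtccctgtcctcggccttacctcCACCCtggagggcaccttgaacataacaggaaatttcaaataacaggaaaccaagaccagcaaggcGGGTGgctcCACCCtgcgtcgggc
GPR183: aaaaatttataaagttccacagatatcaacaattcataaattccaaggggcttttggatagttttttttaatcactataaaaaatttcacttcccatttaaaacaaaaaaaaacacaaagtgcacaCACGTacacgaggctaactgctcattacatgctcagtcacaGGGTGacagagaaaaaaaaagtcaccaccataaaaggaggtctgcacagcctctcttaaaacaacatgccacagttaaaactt

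The CXCR3 window held 1 CACCC match, at positions -126 to -122 from the start. CXCR4 held 2 and S1PR4 held 6 CACCC matches, and in S1PR4 an NF-kB match at -122 to -113 covered the CACCC match at -121 to -117. GPR183 held 1 CACCC match and 1 hypoxia-inducible factor core at -124 to -120. None of the printed windows held TCACAC or GTAAACA. Among the 35116 promoters of the same length in the set used, 54.7% held CACCC, 9.9% TCACAC, 18.5% ACGTG, 2.98% GTAAACA and 9.96% the NF-kB site. These matches describe letters in a window and are not evidence of binding.

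At day 7, 8 of the 9 tested receptors differed from 2D and these 8 showed no overlap between the groups: CXCR3, CCR7, CCR10 and S1PR1 rose, while CXCR4, ACKR3, S1PR4 and GPR183 fell. At day 14, 6 of 9 differed from 2D, with CXCR3, CCR10 and S1PR1 higher and CXCR4, ACKR3 and GPR183 lower. Between the time points, ACKR3 and S1PR4 were higher and CCR7 was lower at day 14. A gene was called at an adjusted p of at most 0.05, from the quasi-likelihood test of edgeR with p-values adjusted by Benjamini-Hochberg over 13463 genes, and levels are given as TMM-normalized CPM (counts scaled to library size). Over all tested genes, 43.4% were called in 3D_7d vs 2D (22.2% up and 21.2% down) and 64.6% had groups that did not overlap. In 3D_14d vs 2D, 36.2% were called (19.0% up and 17.2% down) and 49.7% did not overlap, against 7 of the receptors. Overlap was judged on TMM-normalized CPM, and for CCR7 and S1PR1 at day 14 its absence depended on this scaling. In 3D_14d vs 3D_7d, 28.1% were called (14.5% up and 13.6% down) and 39.3% did not overlap, against 1 receptor, S1PR4. The median log2 fold change of the 9 tested receptors was 0.05, 0.38 and 0.04 in the 3 comparisons, and that of all tested genes was -0.0039, 0.02 and -0.0012. Each call was recomputed in 17 alternative fits that kept the threshold on the adjusted p alone. A minimum of 1 on the absolute log2 fold change, tried separately, left CXCR3, CXCR4, CCR7, ACKR3 and GPR183 at day 7 and CXCR3, CXCR4, CCR10, ACKR3 and GPR183 at day 14, and no receptor between the time points. Both comparisons with 2D share the same 2D samples, so their values are set side by side and not counted as separate evidence. In such bulk samples, fewer cells of a type and less RNA per cell cannot be told apart.

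**Figure D1:**
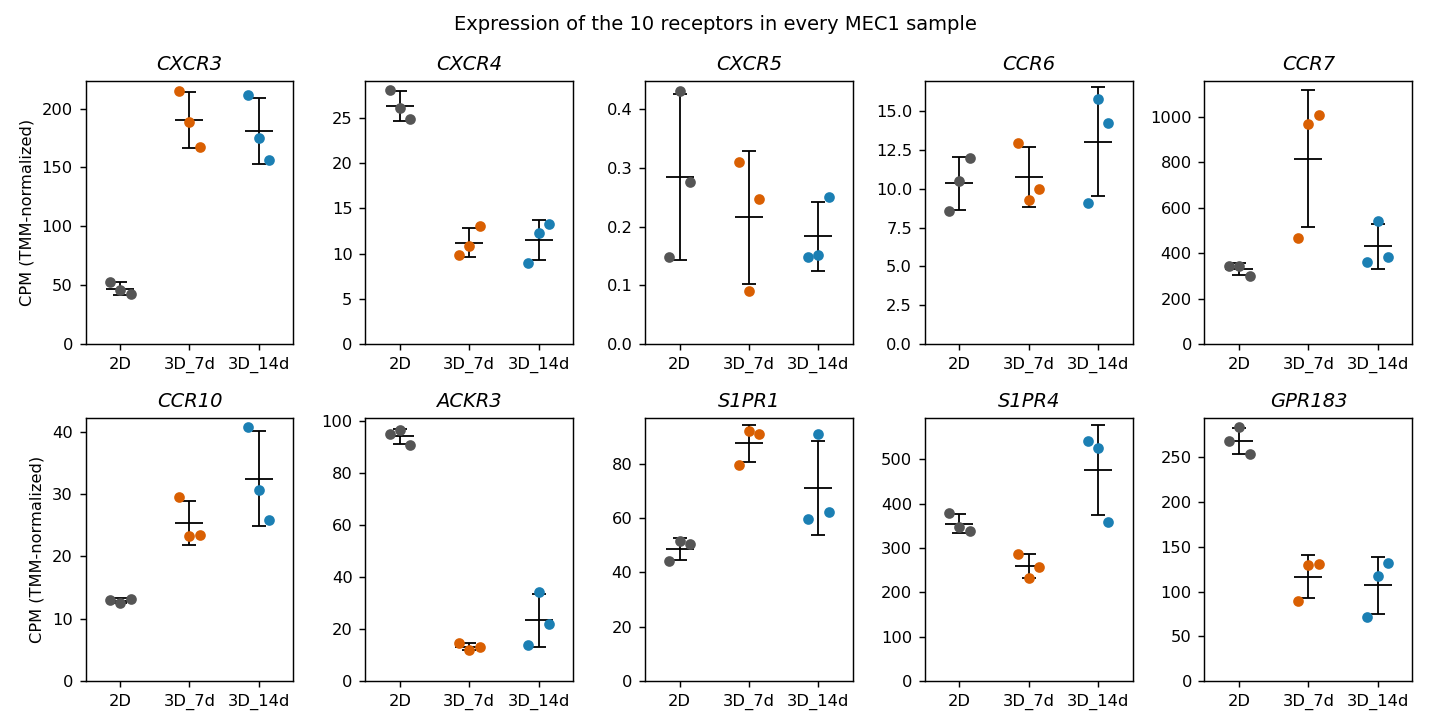
Level of each of the 10 receptors in every sample, as TMM-normalized CPM on a linear axis starting at 0, with 1 panel per receptor and its own scale; points are samples, the long line is the mean of 3 and the bars are ± SD. CXCR3 sits at 42.4 to 53.1 CPM in 2D and at 156 to 215 in the 3D samples, whereas ACKR3 sits at 90.8 to 96.4 in 2D and at 12 to 34.1 in 3D.

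Among the receptors for CXC chemokines, CXCR3 (chrX:71615916-71618511, minus strand) binds CXCL9, CXCL10 and CXCL11. Its level was 53.1, 45.8 and 42.4 CPM in the 3 replicates of 2D, 215, 189 and 167 in 3D_7d and 211, 175 and 156 in 3D_14d. Every 3D sample lay above every 2D sample, and both 3D groups overlapped each other. The fold change against 2D was 4.04 at day 7 (log2 2.01, SE 0.165, adjusted p = 5.55e-06) and 3.84 at day 14 (log2 1.94, SE 0.164, adjusted p = 9.45e-06). Between the time points the log2 difference was -0.07 (SE 0.158, adjusted p = 0.752). The increase over 2D was called under all 17 alternative fits at both time points.

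CXCR4 (chr2:136114349-136118165, minus strand), the receptor for CXCL12 that retains B cells in marrow and other CXCL12-rich niches, moved the other way. It was measured at 28.1, 26.1 and 24.8 CPM in 2D, 9.80, 10.8 and 13.0 in 3D_7d and 9.0, 12.3 and 13.3 in 3D_14d. No 3D sample reached the lowest 2D sample. The level in 2D was 2.35-fold that at day 7 (log2 fold change -1.23, SE 0.193, adjusted p = 0.000339) and 2.29-fold that at day 14 (log2 fold change -1.19, SE 0.193, adjusted p = 0.000571), and both calls stood under all 17 alternative fits. The time points differed by 0.04 on the log2 scale (SE 0.192, adjusted p = 0.897).

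CXCR5 (chr11:118883766-118897799, plus strand), the CXCL13 receptor that brings B cells into follicles, was near the limit of detection. It had 9, 40 and 21 counts in 2D, 18, 5 and 13 in 3D_7d and 8, 8 and 14 in 3D_14d, and did not pass the filter on low counts. All 3 groups overlapped. The mean was 0.285 ± 0.142 CPM (SD, n = 3) in 2D, 0.216 ± 0.113 in 3D_7d and 0.184 ± 0.0585 in 3D_14d, and the exact two-sided permutation test gave p = 0.5 for 3D_7d vs 2D, 0.3 for 3D_14d vs 2D and 0.8 between the time points, where the smallest p that 3 against 3 samples allow is 0.1. Of its exonic bases, 88.58% are shared with BCL9L on the opposite strand, which had 4 to 41 counts; the strand setting of the counting is not given in the sources used here.

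CCR6 (chr6:167111807-167139696, plus strand), the CCL20 receptor, is found on memory and mucosal B cells. It was measured at 8.57, 10.5 and 12 CPM in 2D, 12.9, 9.27 and 9.99 in 3D_7d and 9.07, 15.8 and 14.2 in 3D_14d. Each pair of groups overlapped. Its log2 fold change was 0.05 (SE 0.239, adjusted p = 0.878) at day 7 and 0.33 (SE 0.239, adjusted p = 0.300) at day 14 against 2D, and 0.28 (SE 0.239, adjusted p = 0.406) between the time points. Of its exonic bases, 69.21% are also annotated to Z94721.2, a gene on the same strand with 2 to 98 counts, so its level is uncertain.

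CCR7 (chr17:40553769-40565472, minus strand), which binds CCL19 and CCL21 and draws lymphocytes into lymph nodes and towards the T zone, had a high level in MEC1 cells and a wide spread at day 7. Its level was 344, 345 and 301 CPM in 2D, 467, 967 and 1008 in 3D_7d and 362, 541 and 385 in 3D_14d. In these CPM all 3D samples lay above the 2D samples, and 3D_7d replicate 1 lay within the range of 3D_14d. Scaled to exon length and total counts alone (RPKM), 3D_14d replicate 1 stood at 128, below the 2D range of 134 to 149. It rose 2.47-fold at day 7 (log2 1.30, SE 0.254, adjusted p = 0.00138), a call that all 17 alternative fits shared. At day 14 the log2 difference from 2D was 0.38 (SE 0.250, adjusted p = 0.252), and the change was not called although the groups did not overlap in CPM. From day 7 to day 14 it fell by 0.92 on the log2 scale (SE 0.252, adjusted p = 0.0169). That call was lost without 3D_7d replicate 2 (adjusted p = 0.0777), 3D_7d replicate 3 (0.0841) or 3D_14d replicate 3 (0.0578).

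CCR10 (chr17:42678889-42683064, minus strand), the receptor for CCL27 and CCL28 known from plasma cells of mucosa, was less abundant. It was measured at 13.0, 12.5 and 13.2 CPM in 2D, 29.5, 23.3 and 23.4 in 3D_7d and 40.9, 30.7 and 25.9 in 3D_14d. The 2D samples were tightly grouped and lay below all 3D samples. It rose 1.97-fold at day 7 (log2 0.97, SE 0.190, adjusted p = 0.00138) and 2.52-fold at day 14 (log2 1.33, SE 0.191, adjusted p = 0.000269), also under all 17 alternative fits. Between the time points the log2 difference was 0.36 (SE 0.188, adjusted p = 0.173). Of its exonic bases, 14.54% are shared with CNTNAP1 and 17.44% with AC100793.2, which had 69 to 313 and 4 to 18 counts and lie on the opposite strand.

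ACKR3 (chr2:236569825-236582354, plus strand), the scavenging receptor for CXCL12 and CXCL11, showed the largest difference from 2D of the 9 tested receptors at day 7. It was measured at 95.1, 96.4 and 90.8 CPM in 2D, 14.6, 12 and 13.0 in 3D_7d and 13.9, 34.1 and 22.1 in 3D_14d. The highest 3D sample, 3D_14d replicate 2, was still far below the lowest 2D sample. The level in 2D was 7.13-fold that in 3D_7d (log2 fold change -2.83, SE 0.264, adjusted p = 1.1e-05) and 4.03-fold that in 3D_14d (log2 fold change -2.01, SE 0.255, adjusted p = 0.000116), and both calls stood under all 17 alternative fits. From day 7 to day 14 it rose by 0.82 on the log2 scale (SE 0.250, adjusted p = 0.0275), with 3D_14d replicate 1 inside the range of 3D_7d. Without 3D_14d replicate 2 this difference was 0.45 (adjusted p = 0.0964), and the call was also lost without 3D_7d replicate 2 (adjusted p = 0.0856) or 3D_7d replicate 3 (0.0673).

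Among the lipid receptors, S1PR1 (chr1:101236888-101241518, plus strand) is the receptor through which lymphocytes follow sphingosine-1-phosphate out of lymphoid organs. It was measured at 44.2, 51.7 and 50.5 CPM in 2D, 79.8, 92.2 and 91.0 in 3D_7d and 59.7, 91.1 and 62.4 in 3D_14d. No 3D sample fell into the 2D range in CPM, and 3D_14d replicate 2 lay among the day 7 samples. Scaled to exon length and total counts alone (RPKM), 3D_14d replicate 1 stood at 15.4, inside the 2D range of 13.7 to 16.5. The gene rose 1.80-fold at day 7 (log2 0.84, SE 0.173, adjusted p = 0.00188), a call shared by all 17 alternative fits. At day 14 it rose 1.46-fold (log2 0.54, SE 0.173, adjusted p = 0.0268), but 7 alternative fits lost that call, with adjusted p over all of them from 0.00571 to 0.152. These were the omission of 2D replicate 1, 2 or 3 (adjusted p = 0.120, 0.0700 and 0.0795), of 3D_14d replicate 2 (log2 0.32, adjusted p = 0.0888), a fit of only the samples compared, no filter, and scaling by total counts (log2 0.34, adjusted p = 0.152). Between the time points the log2 difference was -0.30 (SE 0.172, adjusted p = 0.203), and without 3D_14d replicate 2 it was -0.52 and passed the threshold (adjusted p = 0.0175).

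S1PR4 (chr19:3178768-3180332, plus strand, annotated as 1 exon), a sphingosine-1-phosphate receptor of blood and lymphoid cells, was lower at day 7 than at day 14. Its level was 379, 347 and 338 CPM in 2D, 287, 232 and 256 in 3D_7d and 541, 526 and 358 in 3D_14d. In CPM, day 7 samples lay below and day 14 samples mostly above the 2D samples, with 3D_14d replicate 3 inside the 2D range. Scaled to exon length and total counts alone (RPKM), that replicate stood at 233, below the 2D range of 240 to 258. From day 7 to day 14 it rose 1.84-fold (log2 0.88, SE 0.169, adjusted p = 0.00303), a call shared by all 17 alternative fits. The decrease at day 7 against 2D was smaller (log2 fold change -0.46, SE 0.168, adjusted p = 0.0426) and was lost in 7 alternative fits, with adjusted p over all of them from 0.00148 to 0.133. Those were the omission of 2D replicate 1, 2 or 3 (adjusted p = 0.0992, 0.0658 and 0.0514), of 3D_7d replicate 2 or 3 (0.124 and 0.0812), the filter of filterByExpr and no filter. At day 14 the log2 difference from 2D was 0.42 (SE 0.168, adjusted p = 0.0671). It passed the threshold without 3D_14d replicate 3 (log2 0.59, adjusted p = 0.00590) and with the Wald test of DESeq2 (adjusted p = 0.0452). Over the 17 alternative fits it ranged from 0.20 to 0.59, with adjusted p up to 0.329.

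GPR183 (chr13:99294539-99307399, minus strand), also known as EBI2, was measured at 268, 284 and 254 CPM in 2D, 89.4, 130.2 and 131 in 3D_7d and 71.4, 117 and 132 in 3D_14d. The highest 3D sample was far below the lowest 2D sample, and replicate 1 was the lowest of each 3D group. The level in 2D was 2.30-fold that at day 7 (log2 fold change -1.20, SE 0.217, adjusted p = 0.000839) and 2.51-fold that at day 14 (log2 fold change -1.33, SE 0.217, adjusted p = 0.000610), under all 17 alternative fits as well. The time points differed by -0.13 on the log2 scale (SE 0.214, adjusted p = 0.681).

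**Figure D2:**
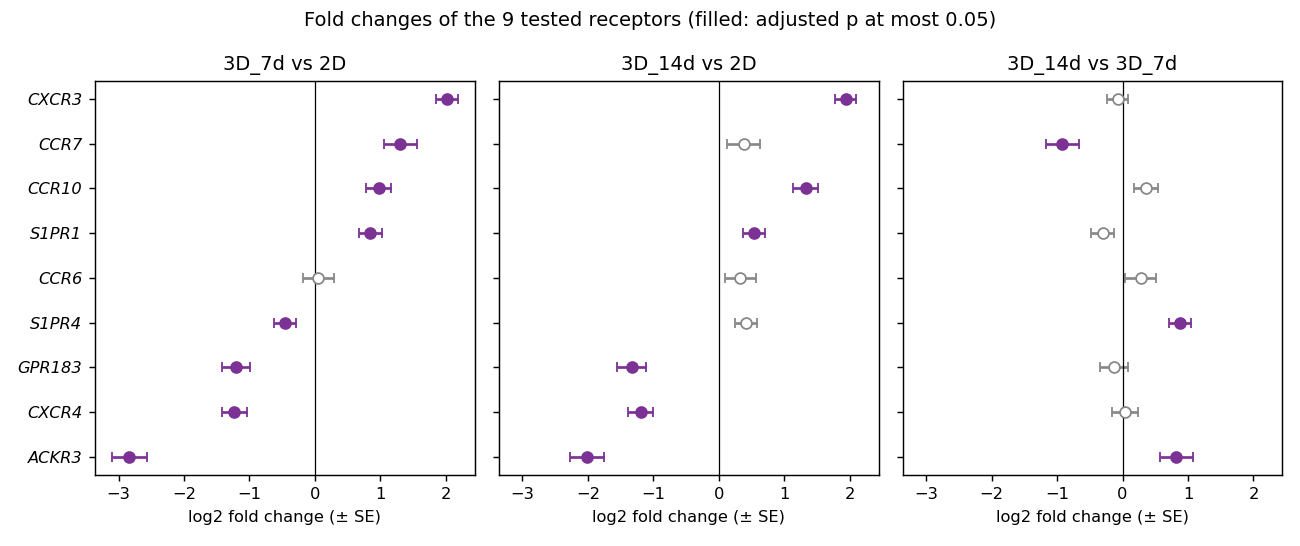
Log2 fold change ± SE of the 9 tested receptors in 3 comparisons, from the edgeR fit of all 9 samples; filled points have an adjusted p of at most 0.05. CXCR3 lies near 2 and ACKR3 between -2.83 and -2.01 in both comparisons with 2D, and only CCR7, ACKR3 and S1PR4 are filled in the comparison of day 14 with day 7.

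Levels of different receptors were compared per exon length, as RPKM (counts scaled to exon length and to the total of assigned counts). In 2D, S1PR4 was the highest, with a mean of 246 RPKM, followed by GPR183 at 173, CCR7 at 143, ACKR3 at 50.7 and CXCR3 at 27.5. S1PR1 at 15.5 and CXCR4 at 14.2 came next and had overlapping ranges, before CCR10 at 5.58, CCR6 at 2.60 and CXCR5 at 0.0700. All other neighbours in this order were separated by more than the range of their samples. At day 7, CCR7 came to the top with 315 RPKM, ahead of S1PR4 at 161, CXCR3 at 99.8, GPR183 at 67.4, S1PR1 at 24.9 and CCR10 at 9.85. In 3D_7d replicate 1, however, CCR7 and S1PR4 were nearly level, at 185 and 183 RPKM. ACKR3 moved from the fourth place to the seventh, at 6.39 RPKM, and its range overlapped that of CXCR4 at 5.42. At day 14, S1PR4 was again the highest with 284 RPKM, then CCR7 at 162, CXCR3 at 91.1, GPR183 at 60.7 and S1PR1 at 19.5. CCR10 at 12.1 and CXCR4 at 5.44 each overlapped ACKR3, which stood between them at 11 RPKM. CCR6 and CXCR5 were the lowest of the 10 in each group.

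**Figure D3:**
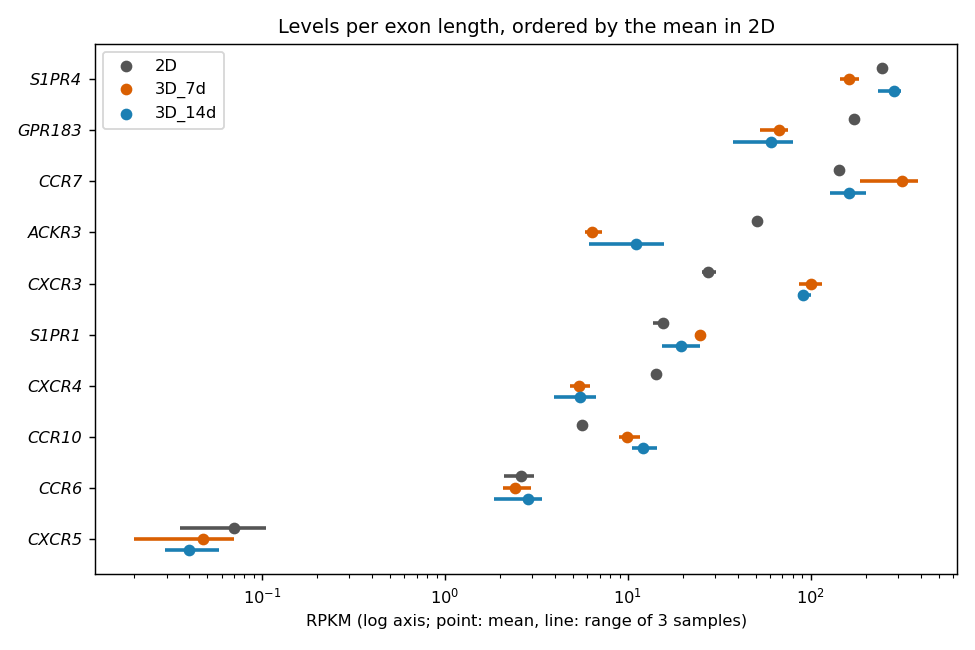
Level per exon length of the 10 receptors (RPKM, log axis), ordered by the mean in 2D; points are group means and lines span the lowest to the highest of 3 samples. CXCR3 moves from 27.5 RPKM in 2D to 99.8 and 91.1 in 3D, and ACKR3 from 50.7 to 6.39 and 11.

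Where only exonic bases not shared with another gene were taken as the length, 8 of the 10 receptors kept their place in 2D, 7 in 3D_7d and 8 in 3D_14d. The calculation was added after the data had been seen and keeps all counts, so it is an upper value for a gene with shared bases. CCR6 then stood at 8.43 RPKM in 2D, 7.84 in 3D_7d and 9.26 in 3D_14d, and CCR10 at 8.20, 14.5 and 17.7. CCR6 passed CCR10 in 2D, CXCR4 and ACKR3 at day 7 and CXCR4 at day 14.

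As a share of the summed RPKM of the 10 receptors, CXCR3 accounted for 4.05% in 2D, 14.4% in 3D_7d and 14.1% in 3D_14d. CCR7 accounted for 21.1%, 45.5% and 24.95%, and GPR183 for 25.5%, 9.73% and 9.36%. The share of CCR7 in 3D_7d was 31.7% in replicate 1, 50.6% in replicate 2 and 51.3% in replicate 3. ACKR3 fell from 7.48% to 0.923% and then stood at 1.70%. The share of S1PR4 was 36.3% in 2D, 23.3% in 3D_7d and 43.8% in 3D_14d.

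Ratios within a sample do not depend on the scaling between libraries. The ratio of ACKR3 to CXCR4, which both bind CXCL12, was 3.58 ± 0.170 (SD, n = 3) in 2D, 1.20 ± 0.255 in 3D_7d and 2.00 ± 0.681 in 3D_14d. No 3D sample reached the 2D range of 3.39 to 3.70, and the time points did not overlap either. The ratio of S1PR4 to S1PR1 was 16.1 ± 2.37 in 2D, 6.53 ± 1.22 in 3D_7d and 15.0 ± 4.19 in 3D_14d, so that day 7 stood below both other groups while 2D and day 14 overlapped. For CCR7 over GPR183 the ratio was 0.825 ± 0.0347 in 2D, 4.56 ± 0.918 in 3D_7d and 2.83 ± 0.762 in 3D_14d. All 2D samples had more GPR183 than CCR7 per length and all 3D samples more CCR7 than GPR183. The ratio of CXCR3 to CXCR4 was 1.93 ± 0.103 in 2D, 18.8 ± 4.90 in 3D_7d and 17.9 ± 6.68 in 3D_14d. These ratios were chosen with the members' levels known and carry no test.

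**Figure D4:**
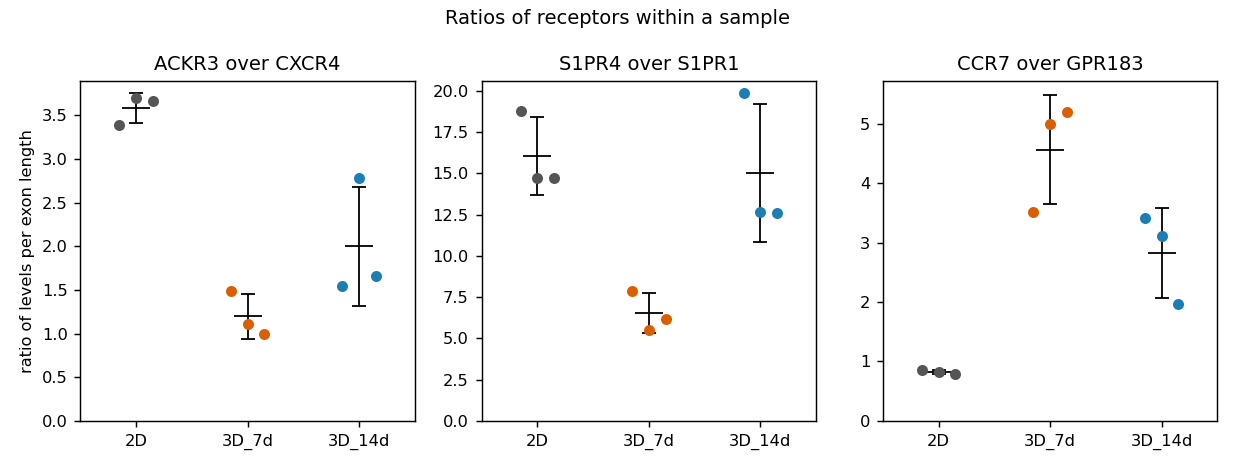
Ratio of levels per exon length within each sample, for ACKR3 over CXCR4, S1PR4 over S1PR1 and CCR7 over GPR183; points are samples, the long line is the mean of 3 and the bars are ± SD. CCR7 over GPR183 is 0.795 to 0.863 in 2D and 1.96 to 5.19 in the 3D samples.

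Of 11 genes for ligands of the receptors, 3 passed the filter on low counts, and 2 of the 3 fell at each time point while none rose. The share called down over all tested genes was 21.2% at day 7 and 17.2% at day 14. CCL28, a ligand of CCR10, went from 20.6 CPM in 2D to 6.70 in 3D_7d and 9.87 in 3D_14d (log2 fold change -1.62, adjusted p = 0.000153, and -1.06, adjusted p = 0.00290), whereas CCR10 rose. CCL20, the ligand of CCR6, had 63, 98 and 98 counts in 2D and 9, 3 and 1 at day 7 (log2 fold change -3.82, adjusted p = 0.000716), and 59, 20 and 64 at day 14 (log2 fold change -0.37, adjusted p = 0.633). CXCL10, a ligand of CXCR3, had 105, 163 and 74 counts in 2D, 80, 86 and 42 in 3D_7d and 0, 12 and 29 in 3D_14d, with a log2 fold change of -0.25 (adjusted p = 0.801) at day 7 and -2.56 (adjusted p = 0.0222) at day 14. CCL20 had no 3D_7d sample and CXCL10 no 3D_14d sample above the 1 CPM of the filter, so both were tested through the groups where they are higher. CXCL9, CXCL11, CXCL12, CXCL13, CCL19 and CCL21 did not pass the filter. Of the exonic bases of MIF and CCL27, 92.28% and 98.43% are shared with other genes. Both were below the filter, which for such genes does not show that the RNA is absent. The median log2 fold change of the 3 tested ligands was that of CCL28, -1.62 at day 7 and -1.06 at day 14. The filter favoured the calls of CCL20 at day 7 and CXCL10 at day 14. The count of 2 of 3 is therefore no result about the ligands as a set.

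Enzymes and transporters of sphingosine-1-phosphate and oxysterols had 5 tested genes of the 11 in the table, of which 2 rose and none fell at each time point. The share called up over all tested genes was 22.2% at day 7 and 19.0% at day 14. SGPL1, the lyase that degrades sphingosine-1-phosphate, rose by 1.52 (adjusted p = 8.53e-05) and 0.87 (adjusted p = 0.00387) on the log2 scale, beside S1PR1, which rose by 0.84 and 0.54. SPHK2, a kinase that makes this lipid, rose by 0.87 (adjusted p = 0.000466) and 0.49 (adjusted p = 0.0178), with 25.75% of its exonic bases shared with AC022154.1 and DBP. The medians were -0.0043 and 0.49. Of 21 other chemokine and sphingosine-1-phosphate receptors, 4 were tested. CCR1 was low, at 0.415, 1.34 and 1.12 CPM, and was called up at both time points, but it passed the filter only through 3D samples, so that a difference was built into its being tested. S1PR2, a receptor that confines B cells to germinal centres, fell by 0.56 (adjusted p = 0.0364) at day 7, with a log2 fold change of -0.03 (adjusted p = 0.913) at day 14. The median log2 fold changes of the 4 tested genes were 0.39 and 0.77. CCR1 is among them, so part of this direction was built in by the filter.

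RGS proteins, receptor kinases and arrestins limit signalling of these receptors. Of 13 tested, 2 rose and 7 fell at day 7, and 2 rose and 4 fell at day 14, with medians of -0.62 and -0.04 on the log2 scale. By comparison, 22.2% of all tested genes were called up and 21.2% down at day 7, and 19.0% and 17.2% at day 14. RGS1, which dampens responses to CXCL12 and other chemokines in B cells, was measured at 855, 879 and 797 CPM in 2D, 103, 126 and 125 in 3D_7d and 184, 329 and 389.7 in 3D_14d. It fell by 2.84 at day 7 (adjusted p = 5.81e-06) and by 1.49 at day 14 (adjusted p = 0.000359), without overlap with 2D. RGS2 and RGS10 fell by 1.44 and 1.30 at day 7, and RGS2 and RGS16 fell by 0.79 and 0.99 at day 14. RGS13, an RGS gene of germinal centre B cells, was called up, with log2 fold changes of 1.31 (adjusted p = 0.0260) and 1.99 (adjusted p = 0.00364), but all 2D samples were under 1 CPM and it passed the filter through the 3D samples alone. RGS3 rose by 0.67 at day 7 and GRK6, a receptor kinase, by 0.77 at day 14.

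Genes that relay chemokine signals to the cytoskeleton were all above the filter. Of these 24, 7 rose and 1 fell at day 7, and 8 rose and none fell at day 14, with medians of 0.14 and 0.34 on the log2 scale. Calls over all tested genes were 22.2% up and 21.2% down at day 7, and 19.0% and 17.2% at day 14. PIK3CG, the catalytic subunit of PI3K-gamma, rose by 1.41 at day 7 (adjusted p = 0.000110), ELMO1, part of a Rac exchange factor, by 1.21 (adjusted p = 0.000684) and GNAI3, an inhibitory G protein, by 0.64 (adjusted p = 0.00132), while PLCB2, a phospholipase, fell by 0.79 (adjusted p = 0.0140). At day 14 the smallest p-values were those of GNAI2 (0.60, adjusted p = 0.00311), RAC1 (0.89, adjusted p = 0.00437) and RAC2 (0.67, adjusted p = 0.00476).

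Of 11 tested genes listed as regulators of the receptors, 2 rose at day 7 and 3 at day 14, and none fell, with medians of 0.16 and 0.38. Among all tested genes, 22.2% were called up and 21.2% down at day 7, and 19.0% and 17.2% at day 14. TBX21, which encodes T-bet, a transcription factor known to act on CXCR3 in T cells, was measured at 286, 306 and 215 CPM in 2D, 396, 254 and 317 in 3D_7d and 475, 572 and 502 in 3D_14d. Day 7 overlapped 2D (log2 fold change 0.26, adjusted p = 0.268) and day 14 did not (0.94, adjusted p = 0.00200). CXCR3 was 4.04-fold and 3.84-fold its level in 2D, and whether TBX21 acts on it in these cells was not tested. CD69, a membrane protein that binds S1PR1 and takes it from the surface, rose by 0.53 at day 14 (adjusted p = 0.00466). CD83, a surface protein of activated B cells, rose by 1.04 at day 7 (adjusted p = 0.000278), and whether it acts on any of the receptors was not tested. TPST2, an enzyme that sulfates tyrosines, including those of chemokine receptors, rose by 0.41 (adjusted p = 0.0380) and 0.84 (adjusted p = 0.000976). KLF2, a factor known to act on S1PR1, was low, at 2.82, 2.10 and 6.04 CPM, and was not called against 2D.

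Adhesion receptors of lymphocyte homing, which act together with chemokine receptors at the vessel wall, had 11 of 11 genes tested. Of these, 7 were up and 1 down at day 7 and 6 up and 2 down at day 14, with medians of 0.85 and 0.67. For all tested genes the shares were 22.2% up and 21.2% down at day 7, and 19.0% and 17.2% at day 14. PECAM1, an adhesion molecule of leukocytes and endothelium, rose by 1.61 and 2.22 on the log2 scale (adjusted p = 0.000108 and 2.13e-05), and ITGB7, with 51.78% of its exonic bases shared with ZNF740, by 1.08 and 1.05. SELPLG, the selectin ligand, fell by 2.03 (adjusted p = 2.52e-05) and 0.82 (adjusted p = 0.00882), and ITGA4 fell by 0.75 at day 14 (adjusted p = 0.0161), with 21.38% of its exonic bases shared.

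**Figure D5:**
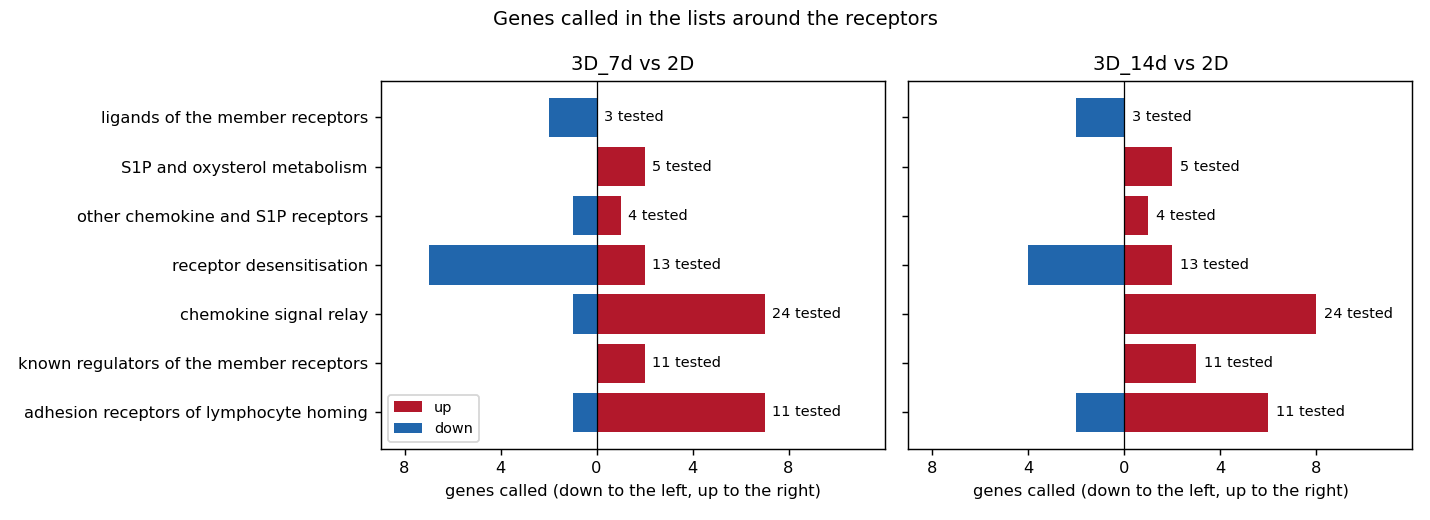
Number of genes called up (right) and down (left) in each list around the receptors, for 3D_7d vs 2D and 3D_14d vs 2D, with the number tested beside each bar. Desensitisation genes have 7 of 13 down at day 7, and adhesion receptors have 7 of 11 up, where 21.2% of all tested genes are down and 22.2% up.

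The genes whose level followed CXCR3 most closely over the 9 samples, by Pearson's r of log2 CPM, were ATP6V0D1 (r = 0.998), TOR2A (0.993), IL18BP (0.993), PHF23 (0.991) and IGHG3 (0.991). The 9 points share libraries and fall into 3 groups, so the values describe the pattern over groups as well as between replicates. ATP6V0D1, a subunit of the vacuolar proton pump, had means of 107, 349 and 317 CPM in 2D, 3D_7d and 3D_14d, against 47.1, 190.3 and 181 for CXCR3. IL18BP, which binds interleukin-18, had 32.7, 124 and 131 CPM. IGHG3 belongs to a family of near-identical immunoglobulin genes, and its counts are uncertain. By Spearman's rho, 0 of these 5 genes were among the 5 most similar.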

How the data were processed

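RNA of MEC1 cells was measured in 9 samples. The authors prepared low-input SMART-Seq libraries, trimmed reads with Trimmomatic (version 0.39), aligned them to GRCh38 with STAR (version 2.5.3a) and deposited the counts per gene made with featureCounts (version 1.6.4); how reads in shared exons and strand were handled is not given in the sources used here. Samples were grouped by the culture method and time of their labels. The filter kept genes whose CPM exceeded 1 in 3 or more samples, 13463 of the 51726 with at least 1 count; 9 of the 10 receptors passed. In R (version 4.3.3), edgeR (version 4.0.16) was used for TMM factors, a mean per group and the quasi-likelihood test of 3 contrasts, with Benjamini-Hochberg adjustment over all genes tested and a threshold of 0.05. SE is that of the log2 fold change. RPKM used the exon lengths of the table and total counts. Log2 CPM used a prior count of 2. The receptors and gene lists were chosen with earlier results of these data known. Named genes were all receptors, in each list up to 3 genes per direction with the smallest p-values against 2D, the 5 genes with the highest correlation with CXCR3, and genes sharing exonic bases with a receptor. A gene of the adhesion list that this rule names is not reported here. Other genes given for their role (KLF2, MIF, CCL27 and ligands below the filter) were named after their values were seen. Alternatives were other scalings, filters and fits, the Wald test of DESeq2 (version 1.42.0), a fold change minimum, a replicate block and leaving out each replicate. Replicate numbers were not taken as pairs. One listed transporter of sphingosine-1-phosphate was not used here.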

Additional observations from a re-analysis of the deposited data

Results flagged for a closer look

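Levels of 3 of the 9 tested receptors differed between the time points, by the test of 3D_14d against 3D_7d in the edgeR fit. Among all tested genes, 28.1% were called in this comparison, so the count of receptors does not set them apart. No time is given for the 2D samples, so whether an effect of 3D culture itself differed was not tested. CCR7 differed by -0.92 on the log2 scale (adjusted p = 0.0169), ACKR3 by 0.82 (adjusted p = 0.0275) and S1PR4 by 0.88 (adjusted p = 0.00303). The samples at both time points were extracted in the same way. S1PR4 was the receptor of these 3 whose time points did not overlap and whose call stood in all 17 alternative fits; with a minimum of 1 on the absolute log2 fold change none of the 3 was called.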

How the results depend on the processing

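Each receptor's fold change was recomputed in 17 alternative fits. Over the 9 tested receptors, 143 of 153 values kept direction and call at day 7, 144 of 153 at day 14 and 138 of 153 between the time points, and no called value changed sign. With a minimum of 1 set on the absolute log2 fold change, 5 receptors were called at day 7 and 0 between the time points (all differ by less than 1), and over all genes 2755, 2172 and 1456 instead of 5838, 4875 and 3785. With only the 6 samples compared, 2453 genes were called between the time points; the cause was not tested. Leaving out a replicate gave 4278 to 7172 genes at day 7, 3204 (without 2D replicate 3) to 5308 at day 14 and 2291 (without 3D_7d replicate 2; 2417 without 3D_7d replicate 3) to 4328 between the time points, and 7 to 8, 5 to 7 and 1 to 3 receptors, with 1 without 3D_7d replicate 2 or 3. Values that changed sign were not called: CCR6 at day 7 with total counts (-0.11) and when a replicate was left out (-0.12 to 0.12), and between the time points CXCR3 (-0.18 to 0.025 with a replicate left out), CXCR4 (-0.018 without a filter, -0.073 to 0.21 with a replicate left out) and GPR183 (-0.31 to 0.11). Scaling by total counts moved the median of all genes by -0.16 at day 7 and -0.21 at day 14 and the share of called genes that were up from 51.1% to 37.6% and from 52.5% to 33.1%. With a replicate block, 8, 6 and 3 receptors and 5760, 4819 and 3683 genes were called, and no call of a receptor changed; samples with the same number had correlations of -0.10 to 0.185, 2 of 9 over 0.1, and 6 of 9 samples correlated best with their own number. By the length of unshared exonic bases, 8, 7 and 8 of 10 receptors kept their place. By Spearman's rho, 0 of the 5 genes most like CXCR3 were the same. CXCR5 had at most 40 counts, and 88.58% of its exonic bases are shared with BCL9L, so its level is uncertain.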
